A study of Mus musculus with 12 samples.

Results

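The genes described here encode the enzymes that turn plasminogen into plasmin, the receptor of urokinase, and serpins that inhibit these enzymes or plasmin. They were chosen by name, with earlier results of these libraries known, and are 6 of the 54532 genes in the deposited tables: *Plat* (tissue plasminogen activator), *Plau* (urokinase), *Plaur* (the urokinase receptor), *Serpine2* (protease nexin-1), *Serpinb2* (plasminogen activator inhibitor type 2), and *Serpinf2* (alpha-2-antiplasmin). Each member had 1 row in every table, in TPM, the share of a library's transcripts that a gene accounts for, with transcript length taken into account. Because of how the members were chosen, their own levels and differences are given as a description.

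The samples were colon and urinary bladder of 9 male mice aged 5 to 7 weeks, in 12 libraries, 3 of each genotype per tissue. All mice carried floxed *Yap1* and *Wwtr1* alleles, which encode the co-activators YAP and TAZ, and all received 1 mg tamoxifen per day in 5 injections, with tissue taken at day 7. Ctrl mice lacked Cre, so that tamoxifen and the floxed alleles were common to all groups. Y/T KO mice carried Myh11CreERT2, a tamoxifen-activated Cre under the promoter of smooth muscle myosin heavy chain whose transgene lies on the Y chromosome. Cre was thus directed at smooth muscle cells, whereas the RNA came from all cells of the tissue. In colon the Ctrl mice were 788, 786, and 787, and those with Y/T KO were 759, 783, and 780. In bladder the Ctrl mice were 784, 785, and 788, and those with Y/T KO were 782, 783, and 780. Values per library are given in this order. Mice 788, 783, and 780 gave both tissues.

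Plasminogen circulates as an inactive precursor made mainly in the liver. Tissue plasminogen activator works best when bound to fibrin, whereas urokinase works at the surface of cells, where its receptor holds it through a lipid anchor. The plasmin they produce degrades fibrin and matrix proteins, and serpins halt each step by trapping the protease in a covalent complex. Protease nexin-1 also inhibits thrombin, plasminogen activator inhibitor type 2 stays largely inside cells, and alpha-2-antiplasmin is the main fast inhibitor of plasmin itself.

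Coordinates are those of the deposited tables and were identical to GENCODE release M21 on build GRCm38, where all 6 are protein-coding genes. *Plat* (ENSMUSG00000031538) lies at chr8:22757727-22782844 on the plus strand. *Plau* (ENSMUSG00000021822) lies at chr14:20836660-20843385 on the plus strand. *Plaur* (ENSMUSG00000046223) lies at chr7:24462484-24475968 on the plus strand. *Serpine2* (ENSMUSG00000026249) lies at chr1:79794197-79861180 on the minus strand, *Serpinb2* (ENSMUSG00000062345) at chr1:107511423-107535478 on the plus strand, and *Serpinf2* (ENSMUSG00000038224) at chr11:75431732-75439591 on the minus strand.

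In bladder, *Plaur* and *Serpinb2* had the largest SD relative to the mean of the members that passed the filter on low values, in both genotypes, and the 250 bases before their start sites (RefSeq promoter table, build GRCm38.p6) are shown for that reason. Of the 6 members, 4 were in that table (*Plaur*, *Serpine2*, *Serpinb2*, and *Serpinf2*). Short motifs were searched for on both strands: TGANTCA, which covers the usual AP-1 letters TGACTCA, and GGAATG, the core of the TEAD motif. Capitals mark the only match in each window. The *Plaur* window, chr7:24462233-24462482 on the plus strand, and the *Serpinb2* window, chr1:107511173-107511422 on the plus strand, read as follows. The *Plaur* start site of that table lies 1 base before the start of the gene in the deposited tables.
Plaur: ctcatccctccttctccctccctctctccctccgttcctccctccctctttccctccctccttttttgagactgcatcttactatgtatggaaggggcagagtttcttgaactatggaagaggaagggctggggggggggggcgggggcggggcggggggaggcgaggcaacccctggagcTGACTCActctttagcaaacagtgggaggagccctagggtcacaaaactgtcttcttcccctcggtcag
Serpinb2: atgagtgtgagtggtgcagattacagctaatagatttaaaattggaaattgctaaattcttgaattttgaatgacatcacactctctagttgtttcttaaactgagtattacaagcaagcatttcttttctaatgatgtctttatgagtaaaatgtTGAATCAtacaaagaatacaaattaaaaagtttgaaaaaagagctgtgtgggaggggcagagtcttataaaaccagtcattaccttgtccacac

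The match in the *Plaur* window was TGACTCA, and its first base lay 69 bases before the start site. In the *Serpinb2* window it was TGAATCA, with its first base 94 bases before the start site. TGANTCA occurred in 6.75% of 32851 promoter windows of this length and TGACTCA in 4.46%. GGAATG occurred in 12.6% of them and in none of the 4 members' windows, and the windows of *Serpine2* and *Serpinf2* held neither set of letters. The RefSeq start sites of *Serpine2* and *Serpinf2* lay 2515 and 90 bases inside the gene as deposited. Both of these windows overlapped annotated exons of the gene itself. *Serpinb2* had 2 RefSeq entries, and the window shown lies before the start site at the gene start. A match is a description of the letters and not a site of binding.

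Depth, as aligned bases estimated from coverage and FPKM, was 2.80 to 3.94 gigabases per library (median, 3.46). Summed markers of colonic epithelium were 3061 to 4663 TPM in colon and 190 to 240 TPM in bladder. Those of urothelium were 4335 to 5715 TPM in bladder and 18.7 to 31.5 TPM in colon. The tissue labels fitted these lists. The colon genotypes were not alike in pancreatic acinar markers. *Cpa1*, *Prss2*, *Pnlip*, and *Ctrb1* were lower with Y/T KO, without overlap (log2 differences, -6.00 to -4.10). *Prss2* held 9.67, 1.26, and 20.7 TPM in the Ctrl libraries and was listed at 0 in each knockout library. *Cela1*, also listed, overlapped (0.19), and 0 of the 5 were called by limma. Whether this bears on other colon values was not tested. *Yap1* was 98.6 to 109.8 TPM in Ctrl bladder against 69.4 to 72.1 TPM in Y/T KO bladder (log2 difference, -0.54; SE, 0.08; limma adjusted p = 0.0625). In colon it was 45.8 to 54.9 TPM in Ctrl against 41.3 to 47.0 TPM in Y/T KO (-0.17; SE, 0.14; limma adjusted p = 0.697). The *Wwtr1* mean was not lower in Y/T KO, with differences of 0.18 in colon (SE, 0.16; limma adjusted p = 0.730) and 0.24 in bladder (SE, 0.24; limma adjusted p = 0.678). A gene's TPM covers all of its exons and all cells of the tissue, so these values do not check the floxed exons, and the genotypes used here are those of the labels.

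The activators were set apart by tissue far more than by genotype. *Plat* was 17.5, 23.9, and 16.8 TPM in the 3 Ctrl colon libraries against 18.2, 19.4, and 21.7 TPM in the 3 libraries of Y/T KO colon. The bladder values were 61.5, 77.0, and 58.7 TPM (Ctrl) and 63.2, 59.2, and 61.9 TPM (Y/T KO). In both tissues the Y/T KO libraries lay within the range of the Ctrl libraries. The means were 19.4 ± 3.88 and 19.8 ± 1.82 TPM in colon and 65.7 ± 9.81 and 61.4 ± 2.03 TPM in bladder (Ctrl and Y/T KO; SD, n = 3). The log2 difference between genotypes was 0.08 (SE, 0.16) in colon and -0.09 (SE, 0.12) in bladder, on the scale of log2 of rescaled TPM plus 0.1.

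*Plau* was the most abundant member by mean TPM in all 4 groups. Ctrl colon libraries held 49.8, 53.6, and 39.9 TPM, and those of Y/T KO colon held 41.6, 37.9, and 39.1 TPM. The bladder values were 107.5, 153.3, and 144.4 TPM (Ctrl) and 115.1, 110.9, and 105.2 TPM (Y/T KO). The Y/T KO means were below the Ctrl means in both tissues (39.5 ± 1.85 against 47.8 ± 7.10 TPM in colon; 110.4 ± 4.94 against 135.1 ± 24.3 TPM in bladder; SD, n = 3), but the lowest Ctrl library of each tissue lay among the Y/T KO libraries. The log2 differences were -0.23 (SE, 0.14) in colon and -0.28 (SE, 0.13) in bladder.

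**Figure D1:**
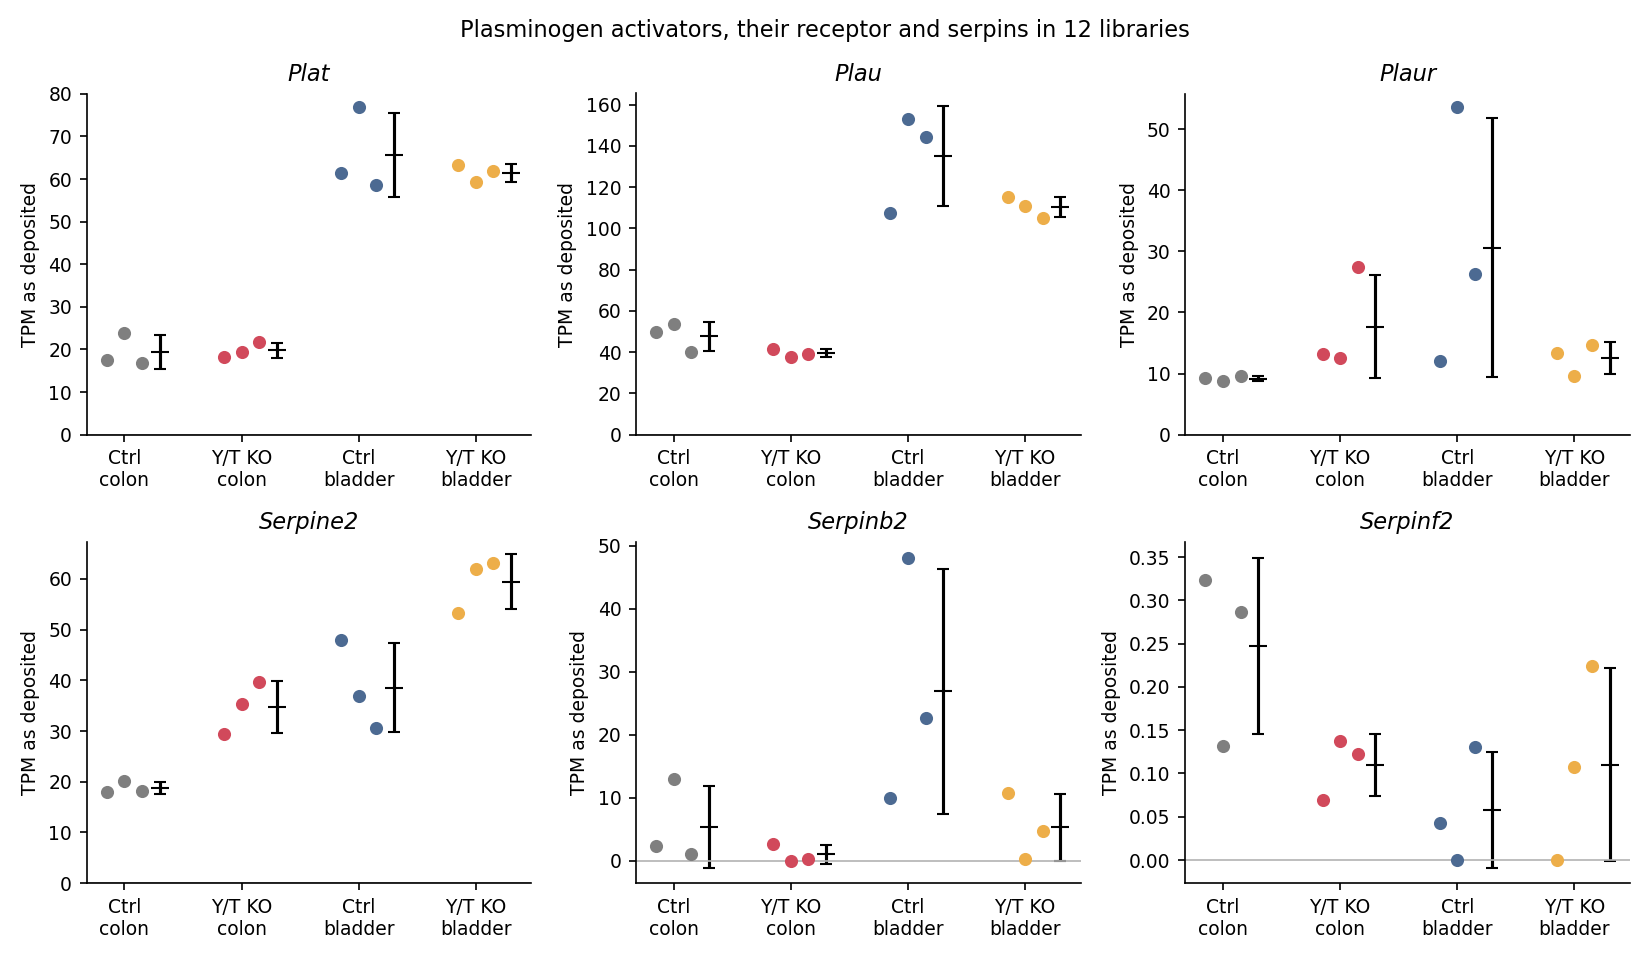
TPM as deposited (y axis, from 0) of each member in the 4 groups of 3 libraries (x axis). Points are libraries, and the black bar to their right is the mean with its SD. *Plat*, *Plau*, and *Serpine2* lie close together within groups, whereas *Plaur* in bladder spans 9.55 to 53.6 TPM and *Serpinb2* spans 0.310 to 48.1 TPM. Each panel has its own scale, and *Serpinf2* stays under 0.5 TPM.

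The receptor *Plaur* differed from its ligand in how it varied. Ctrl colon held 9.25, 8.72, and 9.57 TPM, and Y/T KO colon held 13.2, 12.5, and 27.4 TPM. All Y/T KO colon libraries thus lay above all Ctrl colon libraries, with mouse 780 farthest above. In bladder the values were 12, 53.6, and 26.3 TPM in Ctrl against 13.3, 9.55, and 14.6 TPM in Y/T KO, so that the lowest Ctrl library, of mouse 784, lay among the Y/T KO libraries. The colon means were 9.18 ± 0.431 and 17.7 ± 8.44 TPM and the bladder means 30.6 ± 21.2 and 12.5 ± 2.62 TPM (Ctrl and Y/T KO; SD, n = 3).

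The log2 difference of *Plaur* was 0.88 (SE, 0.31) in colon and -1.06 (SE, 0.51) in bladder, of opposite sign. Each rested in part on 1 library: it was 0.51 in colon without Y/T KO mouse 780 and -0.53 in bladder without Ctrl mouse 785. Those 2 libraries also stood high in neutrophil markers other than *Ly6g*. Of these, *S100a9* was 93.5 TPM in Y/T KO colon 780 against 0 to 25.1 TPM in the other colon libraries. It was 115.3 TPM in Ctrl bladder 785 against 13.9 to 86.8 TPM in the other bladder libraries. *Csf3r*, the receptor of granulocyte colony-stimulating factor, was 7.08 TPM in Y/T KO colon 780 against 0.875 to 3.36 TPM in the other colon libraries. It was 12.5 TPM in Ctrl bladder 785 and 12.6 TPM in Ctrl bladder 788 against 3.14 to 7.18 TPM in the other 4.

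Across libraries of a tissue, the log2 TPM of *Plaur* and *Csf3r* had Pearson's r = 0.66 in colon and r = 0.87 in bladder (n = 6 each). In colon *S100a8* and *S100a9* followed *Plaur* less closely (r = 0.30 and 0.27) than in bladder (r = 0.81 and 0.90). *S100a8*, *S100a9*, and *Cxcr2* were listed at 0 in Y/T KO colon 783, whose *Plaur* level was above every Ctrl colon library. The libraries share genotype groups and a common TPM total, and the values are a description. Over the whole list of 5 neutrophil markers, the summed TPM was 136 to 195 in Ctrl colon, 113 to 331 in Y/T KO colon, 56.7 to 188.5 in Ctrl bladder, and 23.1 to 90.8 in Y/T KO bladder. In colon this sum was mostly *Ly6g*, at 112.1 to 201.4 TPM there and at most 0.299 TPM in bladder. *Ly6g* was not highest in the libraries highest in *Plaur*, at 163.8 TPM in Y/T KO colon 780 and 0 in Ctrl bladder 785. The 4 neutrophil markers tested in bladder all had a negative difference (median log2, -1.10; 0 called), and 2 of 4 did in colon (median, -0.47; 0 called). Other marker sums were about as close to *Plaur* as the neutrophil sum (r = 0.66 in colon and 0.87 in bladder) or closer. In colon r was 0.89 for glia, 0.74 for macrophages, and -0.84 each for neurons, colonic epithelium, and smooth muscle. In bladder r was -0.89 for endothelium, -0.81 for glia, and 0.81 for macrophages. The part of any of these markers in the *Plaur* values was not tested. In whole tissue, fewer cells of a type and less RNA per cell cannot be told apart.

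*Serpine2* was the member whose genotypes were apart in both tissues. Ctrl colon libraries held 18.0, 20.2, and 18.2 TPM, and those of Y/T KO colon held 29.4, 35.3, and 39.7 TPM. The bladder values were 48.0, 36.9, and 30.7 TPM (Ctrl) and 53.2, 62.0, and 63.2 TPM (Y/T KO). Every Y/T KO library lay above every Ctrl library of its tissue, and the Y/T KO colon libraries reached the range of Ctrl bladder. The means were 18.8 ± 1.19 and 34.8 ± 5.16 TPM in colon and 38.5 ± 8.77 and 59.5 ± 5.46 TPM in bladder (Ctrl and Y/T KO; SD, n = 3).

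The log2 difference of *Serpine2* was 0.91 (SE, 0.16) in colon and 0.64 (SE, 0.20) in bladder. Without any 1 library it ranged from 0.80 to 1.03 in colon and from 0.47 to 0.84 in bladder. Summed smooth muscle markers were lower where *Serpine2* was higher: the sum over 6 of them (*Acta2*, *Myh11*, *Tagln*, *Actg2*, *Cnn1*, and *Des*) was 7366 to 8103 TPM in Ctrl colon against 4838 to 5668 TPM in Y/T KO colon, and 34390 to 44891 TPM in Ctrl bladder against 16235 to 29842 TPM in Y/T KO bladder. All 6 had a negative difference in each tissue (median log2, -0.50 in colon and -0.87 in bladder; 0 called in each). The r between *Serpine2* and this sum on the log2 scale was -0.95 in colon and -0.90 in bladder (n = 6 each), over libraries that differ in genotype. Other marker sums moved with *Serpine2* about as closely. In colon r was -0.94 for colonic epithelium, 0.89 for glia, and 0.88 for macrophages. The colon genotypes did not overlap in the epithelial sum (4104 to 4663 TPM in Ctrl against 3061 to 3872 TPM in Y/T KO). Nor did they in the glia sum (11.7 to 13.6 TPM in Ctrl against 14.1 to 18.2 TPM in Y/T KO). In bladder r was 0.87 for endothelium, 0.83 for neurons, -0.81 for neutrophils, -0.77 for urothelium, and 0.74 for glia. The bladder genotypes did not overlap in the endothelial sum (173.6 to 192.6 against 195.6 to 219.4 TPM) or the neuron sum (336.8 to 441.0 against 452.4 to 568.5 TPM). The macrophage and neuron sums had the opposite sign in the other tissue (macrophages, -0.74 in bladder; neurons, -0.86 in colon). The part of any of these markers in the *Serpine2* values was not tested.

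Of the members that passed the filter, *Serpinb2* varied most within groups relative to its mean. In colon the Ctrl libraries held 2.34, 12.9, and 1.01 TPM, Y/T KO mice 759 and 780 had 2.70 and 0.353 TPM, and it was listed at 0 in Y/T KO mouse 783. The bladder values were 9.89, 48.1, and 22.6 TPM (Ctrl) and 10.8, 0.310, and 4.75 TPM (Y/T KO). Y/T KO mouse 783 had the lowest value in both tissues, Y/T KO mouse 780 the next lowest, and Ctrl and Y/T KO overlapped in both.

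The *Serpinb2* means were 5.40 ± 6.49 and 1.02 ± 1.47 TPM in colon and 26.9 ± 19.5 and 5.30 ± 5.28 TPM in bladder (Ctrl and Y/T KO; SD, n = 3). Its log2 differences, -2.67 (SE, 1.37) in colon and -3.00 (SE, 1.27) in bladder, had the widest errors of the members. Without any 1 library they ranged from -3.90 to -1.50 in colon and from -3.95 to -1.64 in bladder. Coverage, the mean number of reads over each base, was at most 4.90 in colon and 15.0 in bladder for this gene, and 0.0836 in Y/T KO bladder 783.

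Of 16298 genes expressed in both tissues, the gene most like *Serpinb2* across the 12 libraries, with the mean of each tissue removed, was *Lrrn4* (r = 0.98), which is on the list of mesothelial markers. *Lrrn4* was 3.90, 10.9, and 3.10 TPM in Ctrl colon against 3.83, 0.849, and 2.55 TPM in Y/T KO colon. Bladder values were 23.2, 56.4, and 29.2 TPM (Ctrl) and 26.5, 5.33, and 18.3 TPM (Y/T KO). The libraries highest in *Serpinb2* (Ctrl colon 786 and Ctrl bladder 785) were the highest in *Lrrn4*, and mouse 783 was the lowest of its tissue in both genes and both tissues. The next most similar genes were *Myrf* (r = 0.98), a membrane-bound transcription factor, and *Ptger3* (r = 0.98), a prostaglandin E2 receptor.

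The other mesothelial markers followed *Serpinb2* less evenly. Within colon and within bladder, r was 0.93 and 0.75 for *Wt1*, 0.72 and 0.85 for *Upk3b*, and -0.27 and 0.89 for *Msln*, against 0.98 and 0.99 for *Lrrn4* (n = 6 each). The 4 markers summed to 34.5 to 44.4 TPM in Ctrl colon, 27.6 to 61.9 TPM in Y/T KO colon, 269.9 to 450.0 TPM in Ctrl bladder, and 147.3 to 378.2 TPM in Y/T KO bladder. Their log2 differences were negative for 3 of 4 in colon (median, -0.26) and 4 of 4 in bladder (median, -0.68), with 0 called in each. The r between *Serpinb2* and the mesothelial sum was 0.49 in colon and 0.91 in bladder. In bladder other marker sums were about as close to *Serpinb2*, with r of 0.96 for neutrophils, 0.90 for macrophages, and -0.92 for endothelium, against 0.31, -0.53, and 0.07 in colon. The part of these markers in the *Serpinb2* values was not tested.

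**Figure D2:**
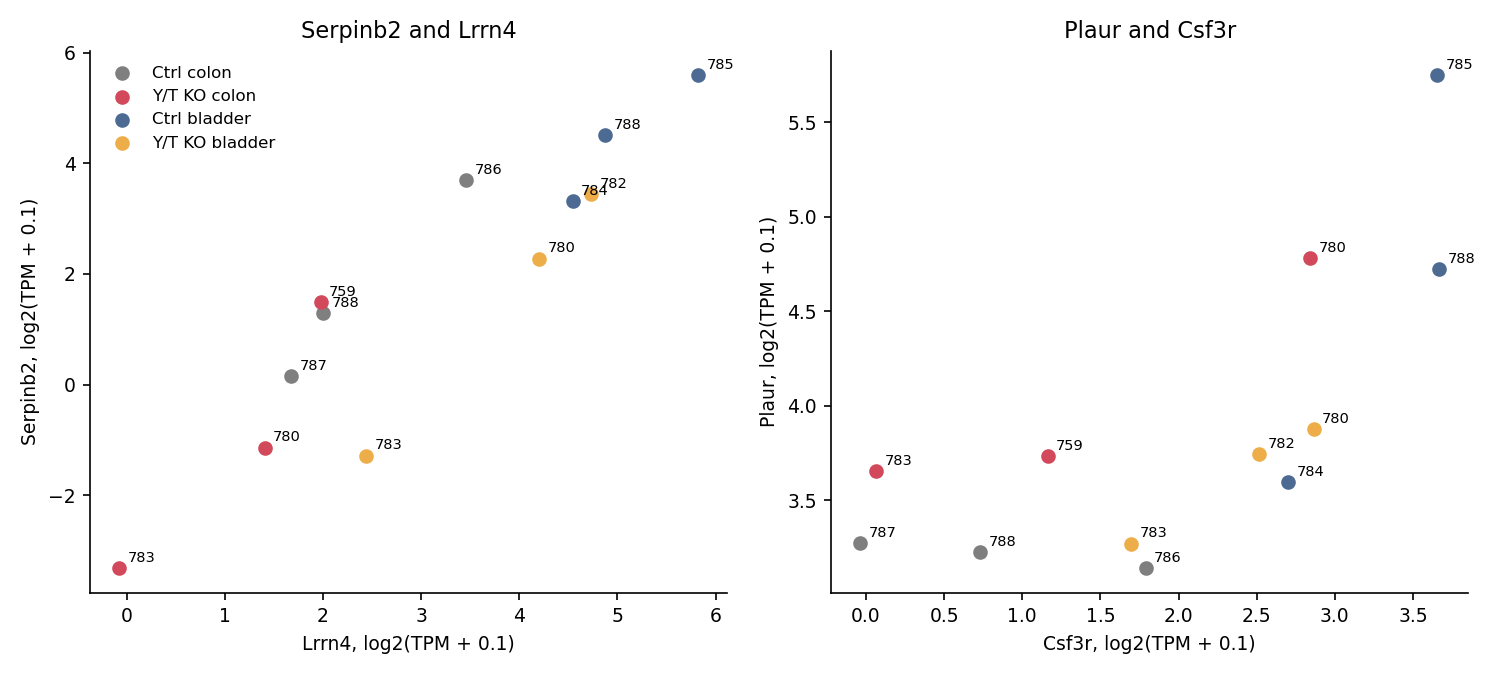
*Serpinb2* against the mesothelial marker *Lrrn4* (left) and *Plaur* against the neutrophil marker *Csf3r* (right), all as log2(TPM + 0.1), with each point a library labelled by mouse number and coloured by group. *Serpinb2* and *Lrrn4* rise together across the libraries of both tissues, and the lowest point is Y/T KO colon 783, where *Serpinb2* was listed at 0. *Plaur* is highest in Ctrl bladder 785 and, among colon libraries, in Y/T KO colon 780.

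*Serpinf2* was barely detected. Ctrl colon libraries held 0.324, 0.132, and 0.287 TPM, and those of Y/T KO colon held 0.0692, 0.138, and 0.122 TPM. In bladder it was 0.0429 and 0.131 TPM in Ctrl mice 784 and 788, Y/T KO mice 783 and 780 held 0.107 and 0.224 TPM, and it was listed at 0 in Ctrl mouse 785 and Y/T KO mouse 782. Its coverage was at most 0.548 reads per base, and it did not pass the filter of 0.5 TPM in at least 3 libraries in any comparison. A difference between genotypes was not detectable at this depth.

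Set against all genes, the members were not called between genotypes. Of the 6 members, 5 passed the filter in each tissue and 0 were called at a limma adjusted p under 0.05, with adjusted p from 0.132 to 0.899 in colon and from 0.232 to 0.777 in bladder. Over all genes, 0.137% of 17500 were called in colon and 0.302% of 18237 in bladder, by the same limma test, whereas 1702 and 2707 had an unadjusted p under 0.05. Groups that did not overlap were found for 2 members in colon (*Plaur* and *Serpine2*, Y/T KO above) and 1 in bladder (*Serpine2*, Y/T KO above), where 16.1% of all genes tested in colon and 22.0% in bladder had no overlap in either direction. Nothing is read from these counts, since the members were chosen with earlier results known.

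The difference of the knockout effect between bladder and colon was -1.92 for *Plaur* (SE, 0.64), whose Y/T KO mean was above Ctrl in colon and below it in bladder, and from -0.25 to -0.03 for the other 4 members tested. None of the 5 was called (limma adjusted p, 0.283 to 0.968), and 0.0491% of the 16298 genes tested were.

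**Figure D3:**
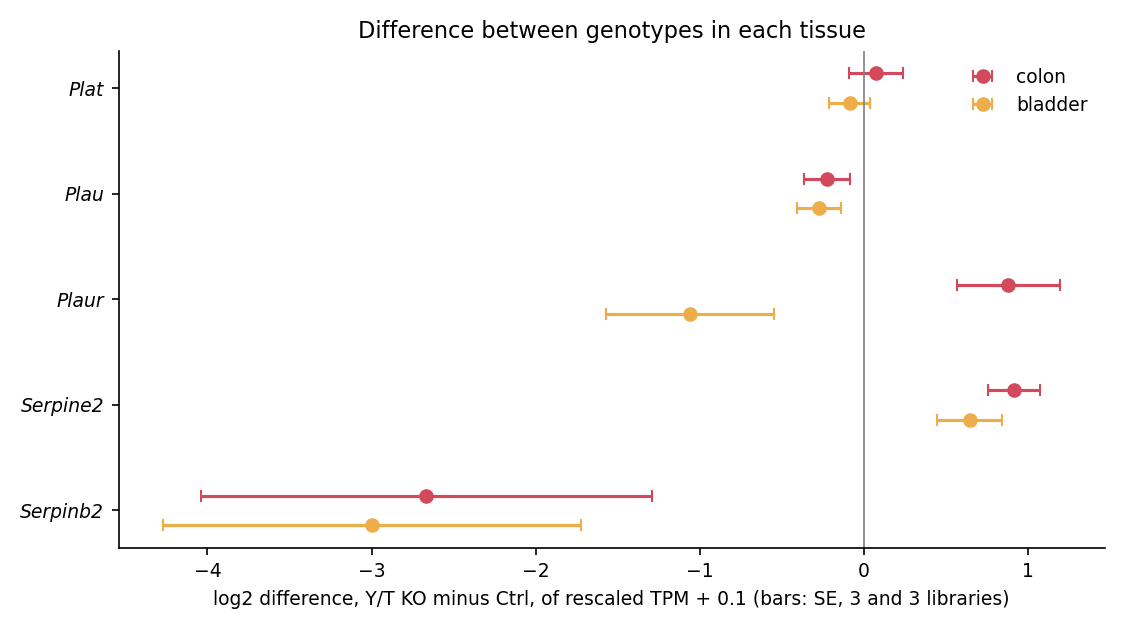
log2 difference between Y/T KO and Ctrl (x axis, rescaled TPM plus 0.1) for the 5 members that passed the filter, in colon and bladder. Points are differences of means of 3 and 3 libraries and bars are 1 SE. *Serpine2* lies at 0.91 and 0.64, *Plaur* at 0.88 and -1.06, and *Serpinb2* at -2.67 and -3.00 with the widest bars, while *Plat* stays within 0.1 of 0 in both tissues.

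Between tissues of Ctrl mice, the levels of both activators, the receptor, and *Serpine2* were higher in bladder in every library, where 58.6% of all genes tested had no overlap between tissues in either direction. The log2 difference, bladder minus colon, was 1.5 for *Plat* (SE, 0.14), 1.23 for *Plau* (SE, 0.13), 1.22 for *Plaur* (SE, 0.45), 0.75 for *Serpine2* (SE, 0.18), and 2.51 for *Serpinb2* (SE, 1.48). The *Plaur* difference was 0.69 without Ctrl bladder 785. For *Serpinb2* the tissues overlapped, since Ctrl colon 786 lay above Ctrl bladder 784. Of the 5 members tested, 4 were called (all but *Serpinb2*; limma adjusted p, 3.74e-06 to 0.188), beside 50.4% of 19773 genes, and nothing is read from the count. The *Plaur* call (limma adjusted p = 0.0438) was lost in 2 of 8 alternatives, at up to 0.0604, and in 9 of 12 fits without a library, at up to 0.161. With TPM as deposited, the median difference of all genes moved from -0.01 to 0.24, and *Plat* became 1.76, *Plau* 1.49, and *Serpine2* 1.01.

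TPM is per transcript length, so that the members can be ordered by level. In Ctrl colon the order was *Plau*, *Plat*, *Serpine2*, *Plaur*, *Serpinb2*, *Serpinf2*, with libraries overlapping between *Plat* and *Serpine2* and between *Plaur* and *Serpinb2*. In Y/T KO colon *Serpine2* reached the level of *Plau* (29.4 to 39.7 against 37.9 to 41.6 TPM) and was above *Plat* in every library, while *Plat* and *Plaur* overlapped. In Ctrl bladder *Plau* and *Plat* led, and *Serpine2*, *Plaur*, and *Serpinb2* overlapped. In Y/T KO bladder *Serpine2* reached the range of *Plat* (53.2 to 63.2 against 59.2 to 63.2 TPM), below *Plau*, and *Plaur* and *Serpinb2* overlapped. *Serpinf2* was last by mean in all 4 groups, and only in Y/T KO colon did it overlap the member above it.

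The ratio of summed activator TPM (*Plat* and *Plau*) to summed TPM of the 3 serpins joins these values within each library. It was 3.25, 2.34, and 2.91 in Ctrl colon and 1.86, 1.62, and 1.51 in Y/T KO colon. In bladder it was 2.92, 2.71, and 3.80 in Ctrl and 2.78, 2.72, and 2.45 in Y/T KO. The colon genotypes did not overlap (2.83 ± 0.463 against 1.66 ± 0.175; SD, n = 3), whereas those of bladder did (3.14 ± 0.578 against 2.65 ± 0.177; SD, n = 3). Of the serpin sum, *Serpine2* was the largest part in every library but Ctrl bladder 785, where *Serpinb2* was larger. The ratio is of transcripts, with no measure of enzyme activity.

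**Figure D4:**
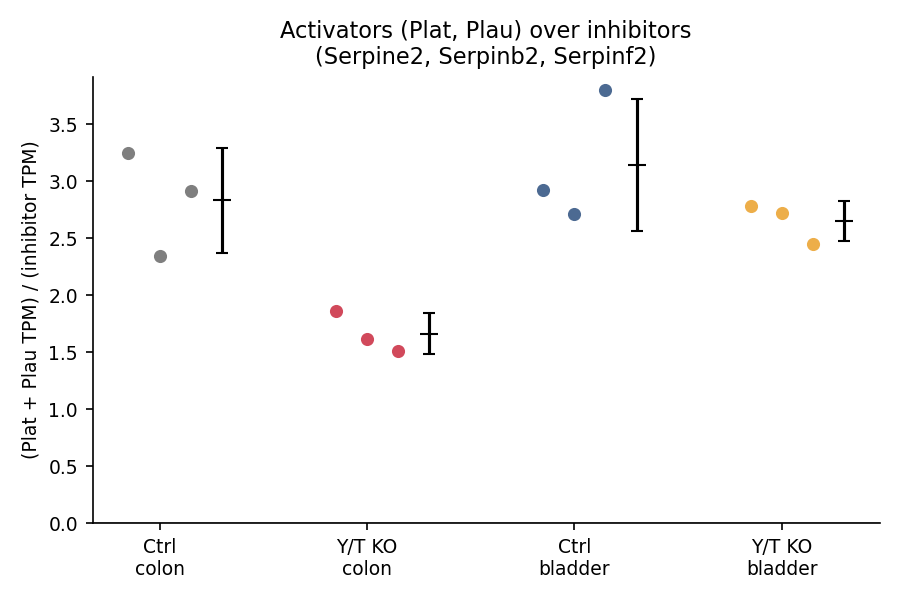
Ratio of activator to inhibitor TPM (y axis, from 0) in each library of the 4 groups, with the mean and SD beside the points. The inhibitors are *Serpine2*, *Serpinb2*, and *Serpinf2*. The Y/T KO colon libraries, at 1.51 to 1.86, lie below all Ctrl colon libraries, and the bladder groups overlap.

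The genes whose levels followed each other member most closely, by the same measure as for *Serpinb2*, were of varied kinds. *Plat* was nearest to *Wisp1* (r = 0.93), a secreted matricellular protein, *Dync1li1* (0.93), a dynein subunit, and *Nepro* (0.90). *Plau* was nearest to the receptor *Notch2* (0.92), *Gm15459* (0.89), and the receptor tyrosine kinase *Axl* (0.87). *Plaur* was nearest to *Dusp6* (0.97), a phosphatase acting on ERK kinases, *Lcat* (0.95), and *Cdca4* (0.95). *Serpine2* was nearest to the small proteoglycan gene *Epyc* (0.95), *Gm7266* (0.94), and the ribosomal protein gene *Rps6* (0.94).

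*Dusp6* was highest where *Plaur* was highest: it was 83.7 TPM in Y/T KO colon 780 against 52.0 to 64.0 TPM in the other colon libraries, and 41.3 TPM in Ctrl bladder 785 against 18.8 to 28.8 TPM in the other bladder libraries. *Rps6* was 1006 to 1237 TPM in Ctrl colon against 1640 to 1727 TPM in Y/T KO colon, and 1059 to 1425 TPM in Ctrl bladder against 1665 to 1830 TPM in Y/T KO bladder, so that its genotypes did not overlap either. Among the members themselves, r was -0.78 between *Serpine2* and *Plau*, -0.74 between *Serpine2* and *Serpinb2*, 0.68 between *Serpinb2* and *Plau*, and 0.57 between *Plat* and *Plaur*. These values are over 12 libraries of 9 mice that share genotype groups.

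The other genes of the pathway were 40 genes in 6 roles, of which 26 were tested in each tissue. In colon 0 were called by limma (0 had an unadjusted p under 0.05, beside 9.73% of all genes), with a median log2 difference of 0.03 beside 0.01 over all genes. In bladder 0 were called by limma (8 had an unadjusted p under 0.05, beside 14.8% of all genes), with a median of -0.12 beside 0.00 over all genes. Under the interaction, 0 of 24 were called by limma and 8 had an unadjusted p under 0.05, beside 12.6% of 16298 genes.

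Plasminogen itself (*Plg*) was listed at 0 in all 12 libraries and was not tested. Of its 4 surface receptors tested, 0 of 4 were called in either tissue. In bladder all 4 had a negative difference and 3 had no overlap between genotypes: *Eno1* (enolase 1) at 336 ± 67.8 and 183.5 ± 44.1 rescaled TPM (log2 difference, -0.88; SE, 0.21; limma adjusted p = 0.162), *Anxa2* (annexin A2) with -0.66 (SE, 0.17; limma adjusted p = 0.184), and its partner *S100a10* with -0.50 (SE, 0.12; limma adjusted p = 0.162). In colon the corresponding differences were 0.04, 0.24, and 0.01. The differences of the knockout effect between bladder and colon were not called (limma adjusted p, 0.226 to 0.925 over the 4). In bladder 22.0% of all genes tested had no overlap. Smooth muscle markers were lower in the same libraries (6 of 6 with a negative difference, median log2 -0.87). So were neutrophil (4 of 4, -1.10), mesothelial (4 of 4, -0.68), urothelial (5 of 5, -0.14), and macrophage markers (4 of 5, -0.23). Fibroblast, endothelial, and neuron markers had mostly positive differences. The part of any of these markers in the receptor values was not tested.

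*Anxa2* was among the most abundant genes of the list, at 834, 1159, and 763 TPM in Ctrl bladder against 662, 521, and 543 TPM in Y/T KO bladder. In colon it was 970, 889, and 1001 TPM in Ctrl against 1056, 1026, and 1220 TPM in Y/T KO, and these groups overlapped once rescaled by size factors. The median log2 difference of the 4 receptors was -0.58 in bladder and 0.03 in colon.

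Clearance receptors remove complexes of protease and serpin from the cell surface or the extracellular space. Counted together with *Vtn* (vitronectin), listed with them as an anchor, 0 of 5 were called in colon and 0 of 6 in bladder. *Vldlr*, the very low density lipoprotein receptor, was 15.0, 13.0, and 15.2 TPM in Ctrl bladder against 19.7, 22.0, and 22.9 TPM in Y/T KO bladder (log2 difference, 0.58; SE, 0.13; limma adjusted p = 0.148). *Igf2r*, the mannose 6-phosphate receptor, was 49.6, 45.8, and 55.5 TPM in Ctrl against 67.5, 64.3, and 67.1 TPM in Y/T KO (0.40; SE, 0.09; limma adjusted p = 0.148). Neither had overlapping groups in bladder, whereas the colon groups overlapped for both (-0.46 and -0.07; limma adjusted p = 0.569 and 0.892).

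Of the other inhibitors, 0 of 5 were called in colon and 0 of 4 in bladder. *Serpini1* (neuroserpin, an inhibitor of tissue plasminogen activator) was 4.48, 2.66, and 2.94 TPM in Ctrl bladder against 5.16, 4.62, and 5.58 TPM in Y/T KO bladder (0.62; SE, 0.25; limma adjusted p = 0.320). In the thrombin arm 0 of 8 were called in each tissue. The genes without overlap there were *Thbd* (thrombomodulin, -0.28; limma adjusted p = 0.526), *F2r* (the main thrombin receptor, -0.17; limma adjusted p = 0.698), and *F2rl3* (0.61; limma adjusted p = 0.520) in colon, and *Tfpi2* (-0.52; limma adjusted p = 0.335) in bladder. Other serine proteases (2 tested) and fibrin and other substrates (2 tested) had 0 called in each tissue.

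**Figure D5:**
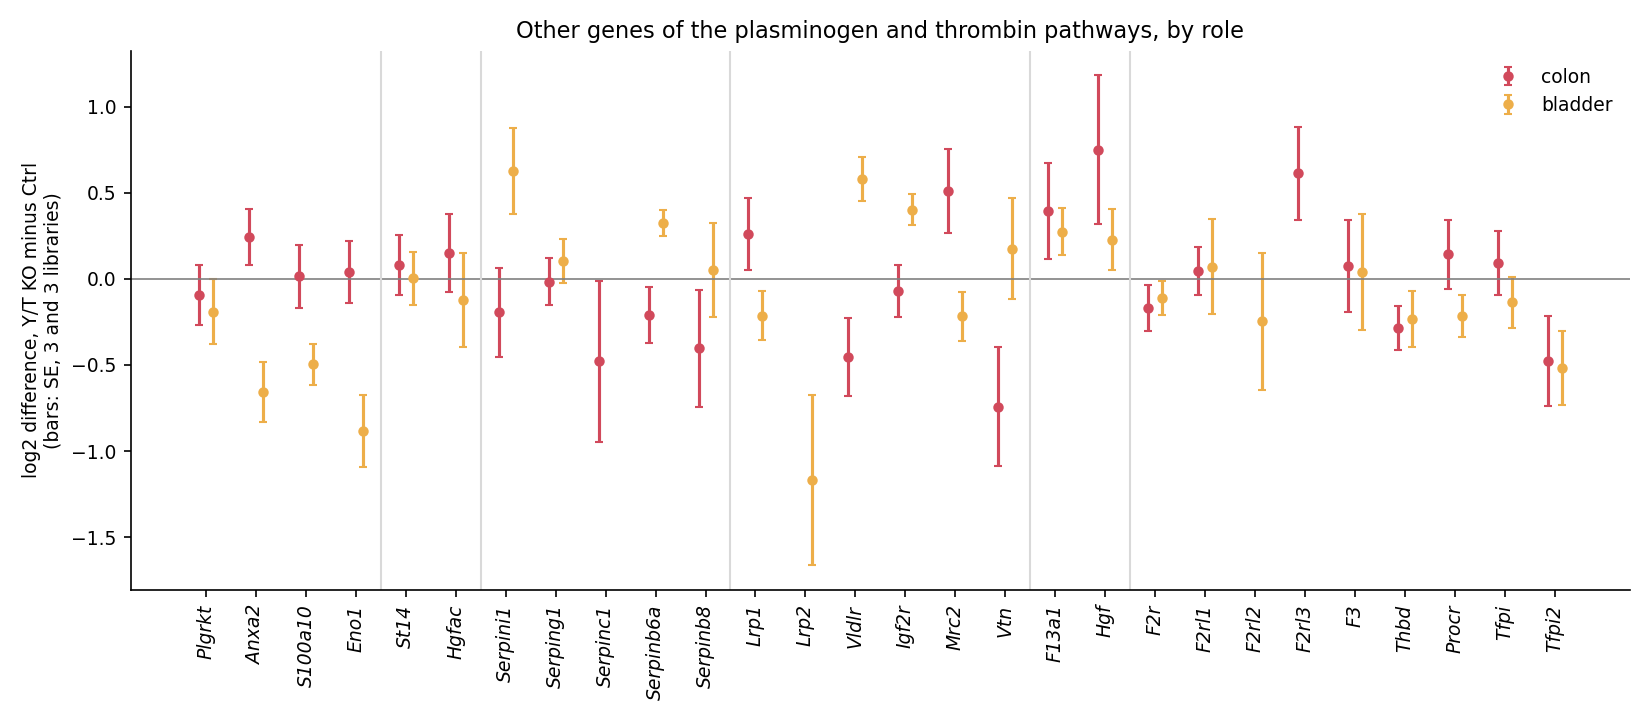
log2 difference between Y/T KO and Ctrl (y axis) for the pathway genes that passed the filter, in colon and bladder, with bars of 1 SE. Vertical lines part the roles, from left to right: plasminogen surface receptors, other proteases, other inhibitors, clearance receptors and anchors, substrates, and the thrombin arm. The 4 surface receptors lie below 0 in bladder, with *Eno1* at -0.88, whereas in colon they lie between -0.09 and 0.24.

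Between tissues of Ctrl mice, 11 pathway genes were lower and 10 higher in bladder of 29 tested (median log2 difference, 0.13), beside 50.4% of all genes called. Lower were the protease genes *Hgfac* (-5.52; limma adjusted p = 1.03e-08) and *St14* (matriptase, -2.89; limma adjusted p = 6.82e-08) and the receptor *F2rl1* (-3.46; limma adjusted p = 1.71e-07). Higher were the endocytic receptors *Lrp2* (2.19; limma adjusted p = 0.00243) and *Mrc2* (1.94; limma adjusted p = 9.6e-06) and *Serping1* (2.0; limma adjusted p = 2.59e-07), the inhibitor of C1 and kallikrein. *Lrp2* had a mean of 0.159 TPM in Ctrl colon, and its difference was 0.89 with a pseudocount of 1 TPM. Also called were *F13a1*, *F2rl2*, *Igf2r*, *Lrp1*, *Serpinb8*, *Tfpi*, and *Thbd*, higher in bladder, and *F2r*, *F2rl3*, *F3*, *Plgrkt*, *Procr*, *S100a10*, *Serpinb6a*, and *Serpinc1*, lower in bladder.

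Of 62 serpin genes, 20 were tested in colon and 23 in bladder. In colon 0 were called by limma, and 3 had an unadjusted p under 0.05, beside 9.73% of all genes. *Serpina3n* was 80.1, 136.8, and 78.8 TPM in Ctrl colon against 206.7, 336.9, and 637.0 TPM in Y/T KO colon, without overlap (1.93; SE, 0.41; limma adjusted p = 0.241). With all 12 libraries in a joint fit its adjusted p was 0.0378 by limma, over the alternatives with all colon libraries it was 0.0378 to 0.304, and without a library it was 0.0595 to 0.55. *Serpina3m* was 0.194 to 0.425 TPM in Ctrl colon against 1.38 to 15.0 TPM in Y/T KO colon (4.24; SE, 0.88; limma adjusted p = 0.241). The *Serpina3* genes are close copies of each other, so that reads may have been split between them and their single values are uncertain. In bladder *Serpina3n* was 429.3 to 602.5 TPM in Ctrl against 604.3 to 668.9 TPM in Y/T KO (0.24; limma adjusted p = 0.429).

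In bladder 1 of the 23 serpins tested was called by limma, beside 0.302% of all genes. This was *Serpinh1*, which encodes a collagen chaperone with no known role as a protease inhibitor. It fell from 757.6, 859.1, and 841.8 TPM in Ctrl to 399.9, 225.7, and 289.1 TPM in Y/T KO (-1.46; SE, 0.18; limma adjusted p = 0.0396). The call was lost in 4 of 8 alternatives and in 5 of 6 fits that left out a library, and was kept there only without Y/T KO mouse 782 (limma adjusted p, 0.0137 to 0.193). In colon its values were spread widely (53.4 to 247.8 TPM in Ctrl against 86.6 to 238.1 TPM in Y/T KO; 0.13; limma adjusted p = 0.958). Its decrease stood in the same libraries in which the smooth muscle markers were lower. All tested neutrophil, mesothelial, and urothelial markers also had a negative difference in bladder. So did the collagen genes *Col1a1* (-0.75, SE 0.24) and *Col1a2* (-0.46, SE 0.195), with overlapping groups, whereas the other 4 fibroblast markers had a positive one. The part of any of these genes in the *Serpinh1* values was not tested. Other serpins without overlap in bladder, among those with the largest differences, were *Serpina3f* (-1.68; limma adjusted p = 0.106), *Serpina3i* (-1.61; limma adjusted p = 0.406), and *Serpinb6c* (1.5; limma adjusted p = 0.264). Of the 23 serpins in bladder, 7 had an unadjusted p under 0.05 by limma, beside 14.8% of all genes. Genotypes did not overlap for 4 with Y/T KO lower and 4 with Y/T KO higher, beside 22.0% of all genes. Under the interaction, 0 of 18 serpins were called by limma and 6 had an unadjusted p under 0.05, beside 12.6% of all genes.

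Between tissues of Ctrl mice, 17 serpins were higher and 5 lower in bladder of 25 tested, with a median log2 difference of 2.02 beside -0.01 over all genes, of which 50.4% were called. The highest were *Serpina3m* (4.40; limma adjusted p = 0.00133), *Serpina3h* (3.27; limma adjusted p = 0.00235), and *Serpina3c* (2.99; limma adjusted p = 0.00125). The lowest were *Serpina9* (-5.07; limma adjusted p = 1.4e-06), *Serpinb1a* (-3.66; limma adjusted p = 5.17e-09), an inhibitor of neutrophil proteases, and *Serpinc1* (antithrombin, -1.89; limma adjusted p = 0.00728). Mean TPM was 0.067 for *Serpina3h* and 0.279 for *Serpina3m* in Ctrl colon, and 0.009 for *Serpina9* and 0.116 for *Serpinc1* in Ctrl bladder. The sizes of such differences depended on the pseudocount. With 1 TPM, *Serpina3m* became 2.82, *Serpina3c* 2.39, *Serpina3h* 1.11, *Serpina9* -2.17, and *Serpinc1* -0.59. The others called were *Serpina3f*, *Serpina3g*, *Serpina3i*, *Serpina3k*, *Serpina3n*, *Serpinb6b*, *Serpinb6c*, *Serpinb8*, *Serpinb9*, *Serpinb9b*, *Serpine2*, *Serpinf1*, *Serping1*, and *Serpinh1*, higher in bladder, and *Serpinb5* and *Serpinb6a*, lower in bladder.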

How the data were processed

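RNA from colon and bladder was sequenced in 12 libraries (TruSeq, stranded, polyadenylated RNA). The authors estimated expression with StringTie (their processing notes also name HISAT2), and the deposited tables give TPM, FPKM, and coverage (the mean number of reads over each base) per gene; tool versions are not given in the sources used here. No counts were used. Rows of a gene ID were summed, and groups came from the labels.

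TPM was divided by median-of-ratios size factors, and log2 of this value plus 0.1 was fitted with limma 3.58.1 in R 4.3.3 (trend and robust, two-sided), with Benjamini-Hochberg adjustment over all genes tested and a threshold of 0.05. Genes needed 0.5 TPM in at least 3 libraries of a comparison. Genotypes were fitted within tissues, and the tissue contrast and interaction in a model of all 12 libraries. A permutation test of 3 against 3 cannot go below p = 0.1 and was not run. P-values rest on the spread between libraries of a group, in which differences between mice, dissection, library preparation, and counting error are mixed. Counting error was not estimated on its own. In the main tissue and interaction fits, libraries of the same mouse entered as separate units. The pipeline was tested on simulated data.

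The members and lists were chosen with earlier results of these data known. Named are all members, the called genes of each list, the 3 largest differences per direction among genes without overlap, and the 3 genes most correlated with each member; *S100a10*, *Yap1*, *Wwtr1*, and marker genes were named for other reasons. An item of the lists is not reported here, and counts over lists leave it out. The mouse numbers of the labels pair tissues. In the 3 mice with both, deviations from group means had a mean r of 0.0437 (-0.0163 to 0.0885). For 15 pairs of different mice of a genotype it was -0.00885 (-0.0988 to 0.0572). These ranges overlap, so they do not check the pairing. Alternatives were other pseudocounts, filters, scalings, a joint fit, limma without trend and robust, mouse as a replicate block, and leaving out each library. Tables and figures used Python 3.11.15, pandas 2.3.3, and matplotlib 3.10.9.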

Additional observations from a re-analysis of the deposited data

How the results depend on the processing

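Of the members and pathway genes together, 0 were called in colon, in bladder and for the interaction in every setting run, libraries left out included. Between tissues 25 were called, with 22 to 25 over alternatives and 20 to 25 without a library. With the mouse as a replicate block the tissue number was 25 and the interaction number 0 (consensus correlation, 0.0516 and 0.0566), so that the paired analysis left both of these numbers as they were. Over all genes, the 24 calls in colon were 6 to 75 over alternatives (6 with no filter, 75 with a joint fit) and 5 to 63 without a library, the 55 in bladder 48 to 67 and 11 to 51, and the 8 of the interaction 7 to 13 and 6 to 28; the cause was not tested. Of 788 values of single genes under other settings, 778 had a test. Of these, 20 lost a call (9 of *Serpinh1* in bladder and 11 of *Plaur* between tissues) and 1 gained one (*Serpina3n* in colon with the joint fit). The sign changed in 11, all without a library and none of a called difference: *Plat* in 1 fit of each tissue, and the interaction of *Plau* in 5 and of *Serpinb2* in 4. The differences of *Plat*, *Plau*, and *Serpine2* between tissues moved by more than the replicate spread with TPM as deposited. With 3 mice per group and no read counts, small differences and genes at the level of *Serpinf2* were not detectable.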
